A study of Mus musculus with 2 samples.

Results

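The genes described here encode the tachykinins (TKs), kisspeptin and the receptors of both peptide families, namely Tac1, Tac2, Tac4, Tacr1, Tacr2, Tacr3, Kiss1 and Kiss1r. They were taken by name, and every probe of the arrays whose RefSeq accession belongs to 1 of these 8 genes was included. This gave 10 probes among 55674, with a pair of probes each for Tacr2 and Kiss1 and 1 probe for each of the other 6 genes. Each of these probes was printed as 1 spot, and none was saturated or marked as an outlier by the image analysis software.

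TKs are short neuropeptides cut from larger precursors: Tac1 encodes substance P (SP) and neurokinin A (NKA), Tac2 encodes neurokinin B (NKB), and Tac4 encodes hemokinin. They act through the TK receptors (TKRs) TACR1, TACR2 and TACR3, which couple to Gq proteins and phospholipase C and prefer SP, NKA and NKB in that order. Kisspeptin, the product of Kiss1, acts through KISS1R, another Gq-coupled receptor, and is best known for driving the neurons that release gonadotropin-releasing hormone, where NKB acts on neurons that make kisspeptin themselves. In the ovary these peptides have been described in follicular cells and in nerve fibres.

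Gene expression was measured in total RNA of mouse ovaries on single-colour oligonucleotide arrays labelled with Cy3. Ovaries from mice aged 2 weeks were divided lengthwise, and the pieces were kept for 3 days in organ culture with TKR ligands, each at 1 μM. The agonists were the SP analogue [Sar9, Met(O2)11]-SP for TACR1, GR-64349 for TACR2 and senktide, a succinylated analogue of an SP fragment, for TACR3. The antagonists were GR-94800 for TACR2, SB218795 for TACR3 and a nonpeptide antagonist for TACR1. There was 1 array for the TKR agonists and 1 for the TKR antagonists, so the conditions have no replicates and the values below are described without a test. How many ovaries contributed to each RNA, and the strain of the cultured ovaries, are not given in the sources used here. No array of untreated ovaries was analysed here, so a higher signal with agonists and a lower signal with antagonists cannot be told apart. In RNA of whole ovary pieces, fewer cells of a type and less RNA per cell cannot be told apart either.

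The upstream regions of the TK precursor genes that were measured on both arrays, Tac1 and Tac2, are shown because their transcripts differed in opposite directions between the arrays. Each run holds the 250 bases before the start of the gene in RefSeq (assembly GRCm38.p6, plus strand), written 5′ to 3′. Capitals mark the matches to the motifs searched on both strands, which were the cAMP response element TGACGTCA, its core TGACG, a STAT site TTCNNNGAA, an AP-1 site TGANTCA, an E-box CACGTG and a TATA box TATAAA. The core lies within the full cAMP response element, so the matches to these overlap.
Tac1, chr6:7554811-7555060: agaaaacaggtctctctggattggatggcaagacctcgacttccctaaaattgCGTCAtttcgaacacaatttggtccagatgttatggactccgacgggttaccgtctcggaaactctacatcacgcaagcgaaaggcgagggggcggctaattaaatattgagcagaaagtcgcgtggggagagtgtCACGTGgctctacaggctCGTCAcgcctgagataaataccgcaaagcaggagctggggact
Tac2, chr10:127724228-127724477: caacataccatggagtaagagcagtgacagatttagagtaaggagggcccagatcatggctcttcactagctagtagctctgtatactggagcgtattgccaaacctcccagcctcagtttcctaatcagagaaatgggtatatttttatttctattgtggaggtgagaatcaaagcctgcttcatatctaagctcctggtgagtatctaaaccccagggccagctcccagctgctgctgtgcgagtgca
The Tac1 region held the core in its reverse complement CGTCA at bases -197 to -193 and -43 to -39 from the start, and an E-box at -61 to -56. The Tac2 region held none of these motifs. Among 32851 upstream regions of the same length, 17.8% held the core and 6.02% the E-box. The other shares were 1.55% for the full cAMP response element, 7.02% for the STAT site, 6.75% for the AP-1 site and 12.4% for the TATA box. The core was also found in the regions taken for Tacr1, Tacr3, Kiss1 and Kiss1r, and a TATA box in that of Tacr3. The regions of Tac4 and Tacr2 held none of the motifs. The region of Kiss1 is not printed because the start given for it lies inside the extent of the gene in RefSeq. A match is a description of the letters and not of a site in use.

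The software's criterion for a signal well above background decided which transcripts could be compared. On both arrays it was met by 6 of the 10 probes, which represented Tac1, Tac2, Tacr2, Kiss1 (both probes) and Kiss1r. The same criterion was met by 59.4% of all probes on both arrays, by 64.6% on the agonist array and by 60.8% on the antagonist array, so the share among these genes was close to that among all probes. The remaining 4 probes, those of Tac4, Tacr1 and Tacr3 and the other Tacr2 probe, were well above background on neither array, as were 34.0% of all probes. No probe of these genes passed on 1 array only. The plot of signals by probe shows the 2 arrays side by side.

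**Figure D1:**
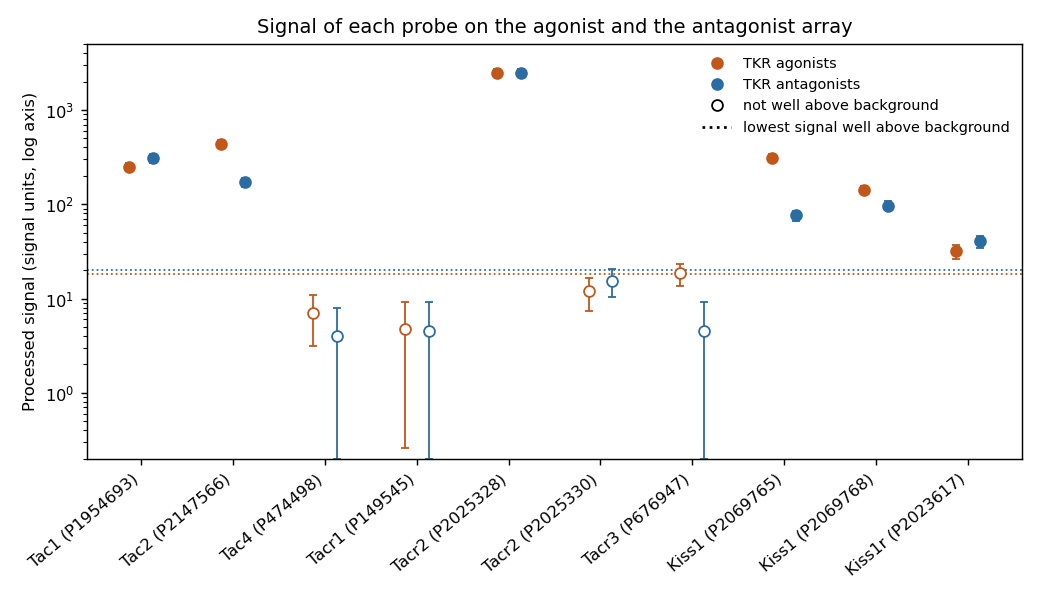
Processed signal of the 10 probes (vertical axis, signal units, log scale) on the agonist array (orange) and the antagonist array (blue), with the signal error given by the software as bars and bars that reach below 0 cut at the axis. Filled points are well above background, open points are not, and the dotted lines mark the lowest signal well above background on each array (18.1 and 19.9); the 4 probes with open points are those of Tac4, Tacr1, Tacr3 and the other Tacr2 probe.

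The array signals were compared as log2 ratios, agonists minus antagonists, with the 75th percentile of each array (672 signal units with agonists, 569 with antagonists) set to the same level. On this scale the 33073 probes measured on both arrays, that is, well above background on each, had a median of -0.10, quartiles of -0.27 and 0.12 and an SD of 0.43 across probes. Without scaling this median was 0.14 and with scaling on spike-in RNA it was 0.17, so the ratio of each of the 6 probes measured on both arrays is also given relative to the median of all probes. Of these probes, 2.69% were higher with agonists by 2-fold or more and 0.705% were lower by as much, together 3.4%. Among probes printed at 10 spots, the SD of the log2 ratio between spots had a median of 0.23 at signals under 100, 0.09 at signals from 100 to 1000 and 0.06 above, which covers spot error alone and says nothing of how ovaries vary.

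Of the 6 measured probes of TK, kisspeptin and receptor genes, 2 were past 2-fold on the higher side with agonists, namely that of Tac2 and 1 of Kiss1, and 0 on the lower side. Their median log2 ratio was 0.03, against -0.10 over all probes, with 3 probes above 0 and 3 below 0. At signals from 100 to 1000, where the Tac2 and Kiss1 probes lie, 3.45% of all measured probes were at least 2-fold higher with agonists and 0.536% as much lower. A count of 2 among 6 probes of which 2 belong to the same gene describes these probes and is no test against that share.

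Tac1, the precursor of SP and NKA, gave a signal of 250 ± 25.3 with agonists and 307 ± 31.0 with antagonists (software error of 1 spot, as for all signals below; accession NM_009311). The Tac1 signal was lower on the agonist array. Before scaling, the intervals given by the errors narrowly missed each other, and these errors cover the spot alone. Its log2 ratio was -0.54 with a software error of 0.21, or 1.45-fold higher with antagonists, and over the settings tried it ranged from -0.59 to -0.27. Relative to the median of all probes the ratio was -0.44, and 6.31% of all probes had a ratio at or below that of Tac1. Sdhaf3 and Asns, the protein-coding genes next to Tac1, had log2 ratios of -0.41 and -0.88, where the median of all probes was -0.10.

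Tac2, the precursor of NKB, gave 434 ± 43.6 with agonists and 170 ± 17.6 with antagonists (NM_001199971). The agonist array was the higher one, opposite to Tac1. The log2 ratio was 1.11 with a software error of 0.21, a 2.16-fold difference, and it ranged from 0.77 to 1.38 over the settings, or from 1.71-fold to 2.60-fold. It fell short of 2-fold under normexp background correction alone. Relative to the median of all probes it was 1.21, and 2.14% of all probes had a ratio at least as high. The protein-coding genes next to Tac2, Myo1a and Zbtb39, had log2 ratios of -0.05 and -0.24, below that of Tac2.

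Tac4, the precursor of hemokinin, gave 7.08 ± 3.93 with agonists and 3.98 ± 4.0 with antagonists (NM_053093). Neither signal was well above background, and both lay below the lowest signal that was. The fold between the arrays is therefore not given for Tac4. A looser mark of the software, a signal positive and significant against background, was met on the agonist array and not on the antagonist array.

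Kiss1, the kisspeptin precursor, had 2 probes for the same transcript (NM_178260), and both were higher with agonists by amounts that differed. The first gave 312 ± 31.5 with agonists and 76.0 ± 8.89 with antagonists, a log2 ratio of 1.80 with an error of 0.22. The second gave 142 ± 14.7 with agonists and 96.6 ± 10.6 with antagonists, a log2 ratio of 0.31 with an error of 0.22. Relative to the median of all probes these ratios were 1.89 and 0.41. So the same transcript was 3.48-fold higher by the first probe and 1.24-fold higher by the second. The first ranged from 1.09 to 2.06 over the settings and stayed above 2-fold in each, from 2.13-fold to 4.18-fold. The second ranged from 0.06 to 0.58 and stayed below 2-fold in each.

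The gap between the Kiss1 probes was 1.49 on the log2 scale. Among 3177 genes with exactly 2 probes measured on both arrays the median gap was 0.15 and the 95th percentile 0.71, and 20 of these genes, or 0.630%, had a gap at least as large as that of Kiss1. Log2 ratios that differed by 1 or more between probes were found for 2.22% of genes with 2 or more measured probes. The Kiss1 probes therefore disagreed more than most pairs, and the size of the Kiss1 difference depends on which probe is read. Of all probes, 0.574% had a log2 ratio at least as high as the first Kiss1 probe and 14.2% one at least as high as the second. The place of each probe within the Kiss1 transcript is not given in the sources used here. Golt1a, a gene of membrane traffic whose extent in RefSeq overlaps that of Kiss1, gave 1339 with agonists and 1383 with antagonists, a log2 ratio of -0.29. Ren1, the renin gene on the other side of Kiss1, had a log2 ratio of -0.41. The part that overlapping transcripts have in either Kiss1 signal was not tested.

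**Figure D2:**
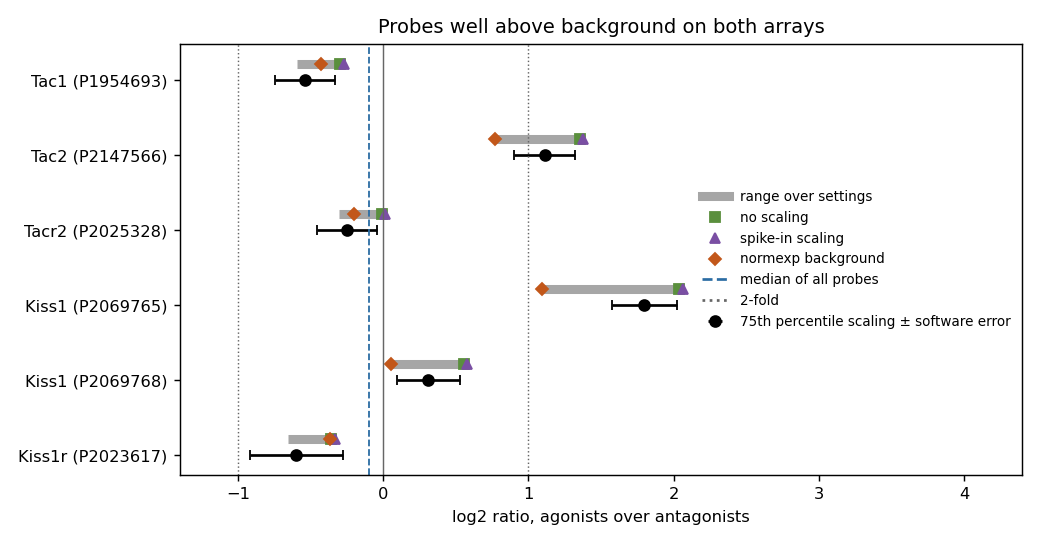
Log2 ratio, agonists over antagonists, of the 6 measured probes; black points are the values after scaling on the 75th percentile with the software error as bars, grey bars the range over the settings tried, and coloured symbols 3 of those settings. The first Kiss1 probe (1.80) and Tac2 (1.11) lie right of the 2-fold line, the second Kiss1 probe at 0.31, and Tac1, Tacr2 and Kiss1r left of 0, although Tacr2 moves to 0.016 with spike-in scaling.

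Among the receptors, Tacr1, whose product binds SP most strongly, gave 4.74 ± 4.48 with agonists and 4.56 ± 4.58 with antagonists (NM_009313). The Tacr1 transcript was not well above background on either array, and its signals were about as large as their errors. After subtraction of the background the values were 4.34 with agonists and -9.04 with antagonists. The Tacr1 probe met the looser mark on the agonist array and not on the antagonist array.

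Tacr2, the receptor that prefers NKA, gave 2454 ± 245 with agonists and 2465 ± 247 with antagonists by its first probe (NM_009314). The Tacr2 signals differed by less than their errors before scaling. After scaling the log2 ratio was -0.25 with an error of 0.20, or 1.19-fold higher with antagonists, and over the settings it lay between -0.30 and 0.016, above 0 with spike-in scaling. Relative to the median of all probes the Tacr2 ratio was -0.15 and ranged from -0.15 to -0.08. It was the ratio closest to the median of all probes among the 6 that could be measured. Next to Tacr2, Tspan15 had a log2 ratio of 0.60 and the Hk1 probes 0.07 and -0.18.

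The second Tacr2 probe, for the same accession, gave 12 ± 4.66 with agonists and 15.4 ± 5.00 with antagonists and was well above background on neither array. Tacr2 thus had 1 probe that was measured on both arrays and 1 that was not. Of 4557 genes with exactly 2 probes, 20.6% had such a pair. The place of each probe within Tacr2 is not given in the sources used here, and which of these probes reads the Tacr2 transcript in ovary was not tested.

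Tacr3, the NKB receptor, gave 18.5 ± 4.72 with agonists and 4.55 ± 4.56 with antagonists (NM_021382). The agonist signal was close to the lowest signal counted as well above background on that array, 18.1, but the Tacr3 spot itself was not counted so on either array. No fold is given for Tacr3, since neither side was measured by the criterion used. The background-subtracted values were 17.3 with agonists and -2.98 with antagonists, and the looser mark was met on the agonist array and not on the antagonist array. The same pattern of that mark was seen for Tac4, Tacr1 and Tacr3, that is for 3 of the 4 dim probes. The second Tacr2 probe met the mark on both arrays. Over the whole arrays, 5580 spots fell below background with agonists and 7196 with antagonists. The mark was met on both arrays by 42336 of all 55674 probes. How often dim probes of other genes met the mark with agonists only was not tested. The pattern is therefore not read as expression of Tac4, Tacr1 or Tacr3 with agonists.

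Kiss1r, the kisspeptin receptor, gave 31.6 ± 5.26 with agonists and 40.5 ± 5.96 with antagonists (NM_053244). Both signals were well above background, although low, and before scaling the intervals given by their errors overlapped. The log2 ratio was -0.60 with an error of 0.32, or 1.51-fold higher with antagonists, and it ranged from -0.65 to -0.33 over the settings. Relative to the median of all probes the ratio was -0.50, and 4.58% of all probes had a ratio at or below it. Kiss1r and the first probe of its ligand thus lay on opposite sides of the median. Next to Kiss1r, R3hdm4 had a log2 ratio of -0.28 and the Arid3a probes 0.25 and 0.38.

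**Figure D3:**
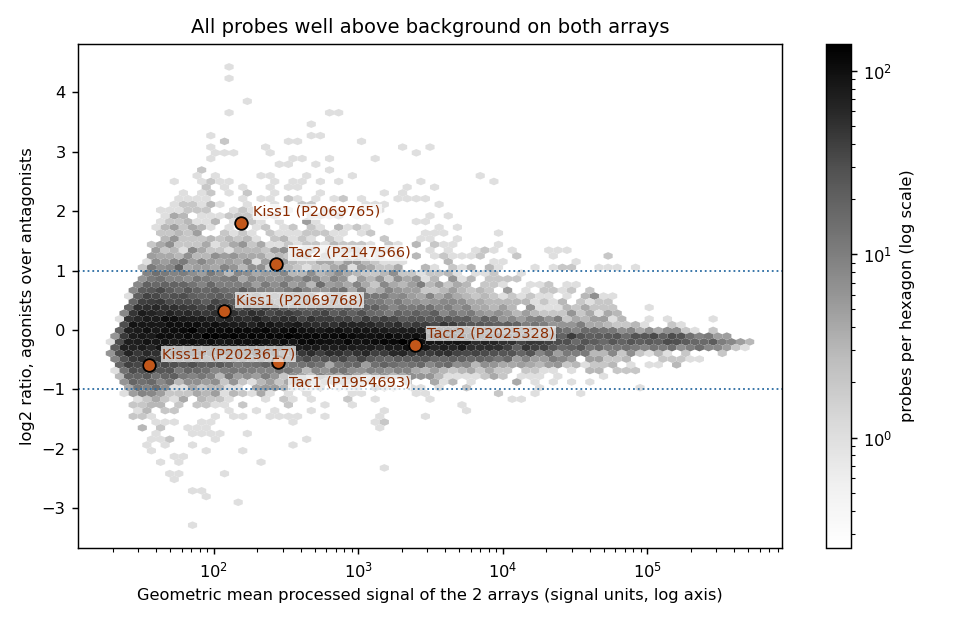
Log2 ratio, agonists over antagonists, against the geometric mean of the processed signals (log axis) for the 33073 probes measured on both arrays; grey hexagons show how many probes fall in each, orange points the 6 probes of TK, kisspeptin and receptor genes, and dotted lines 2-fold. The first Kiss1 probe (1.80) and Tac2 (1.11) lie above the 2-fold line at signals where 3.45% of probes do, and the other 4 lie between the lines.

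The other genes of the peptide pathways were read from lists of related genes, of which each gene was represented by its probe with the highest mean signal. In the list for processing of neuropeptide precursors, 10 of 11 genes were measured on both arrays, with a median log2 ratio of -0.15, and 0 genes were past 2-fold on the higher side and 2 on the lower side with agonists. These were the granins Chgb and Scg2, proteins of dense-core secretory granules. Chgb gave 31.6 with agonists and 173 with antagonists, 6.48-fold higher with antagonists. Scg2 gave 61.7 and 178, a 3.42-fold difference in the same direction. The other 8 genes, which include the enzymes and carriers that cut and finish peptide precursors, had ratios from -0.71 to 0.63, and the median of the list moved to 0.11 under another scaling.

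In the list for receptor desensitisation and trafficking, all 8 genes were measured, with a median of -0.05 that ranged from -0.10 to 0.22. Rgs4, which speeds the shut-off of Gq signalling, gave 682 with agonists and 147 with antagonists, 3.92-fold higher with agonists, and its other probe had a log2 ratio of 1.57. Rgs4 was the 1 gene of this list past 2-fold. The receptor kinases and arrestins were within 2-fold, between -0.49 and 0.28.

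Of 10 hypothalamic partners of the kisspeptin and NKB neurons, 5 were measured on both arrays and 5 on neither, among them Pdyn, the dynorphin precursor of these neurons. The median of those measured was 0.37, with a range of -0.14 to 0.49 and 0 genes past 2-fold. Prlr, the prolactin receptor, had a ratio of 0.09, and Esr1, an oestrogen receptor, 0.43.

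Of 12 other peptide receptors coupled to Gq, 7 were measured on both arrays, 2 on the agonist array only and 3 on neither. The median was 0.79 and ranged from 0.20 to 1.05 over the settings, and 0 of the 7 were past 2-fold. Ednra, an endothelin receptor, had a ratio of 0.11 and Ednrb, the other endothelin receptor, 0.92. The measured receptors of the TK and kisspeptin families, Tacr2 and Kiss1r, had ratios of -0.25 and -0.60, below that median.

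Of 14 other peptide precursors, 9 were measured on both arrays and 5 on neither, and 5 of the 9 were past 2-fold on the higher side and 0 on the lower side with agonists. Cck, the cholecystokinin precursor, gave 530 with agonists and 34.6 with antagonists, a 13-fold difference. Penk, the enkephalin precursor, gave 8537 and 1360, a 5.31-fold difference, and Edn2, an endothelin precursor, gave 146 and 37.8, a 3.27-fold difference. Several peptide precursors outside the TK and kisspeptin families were thus higher on the agonist array, with a list median of 1.01 that ranged from 0.26 to 1.27. Within the families described here, Tac2 and the first Kiss1 probe were on that side of 2-fold and Tac1 was not.

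Markers of ovarian and other cells were set beside these values, since the RNA came from whole tissue. Granulosa cell markers were measured for 10 of 10 genes and oocyte markers for 11 of 11, including Gdf9 and Oosp1, so the tissue label was borne out by its follicular markers. Of 8 theca and steroidogenic markers, 6 were measured on both arrays, among them Cyp17a1 and Hsd3b1, while Lhcgr, the luteinising hormone receptor, was well above background on neither array and Insl3 was not matched to a probe.

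The granulosa cell markers had a median log2 ratio of -0.57, with a range of -0.63 to -0.30 over the settings, and a summed signal of 118858 with agonists and 123736 with antagonists. This and the sums below are unscaled signals, and scaling on the 75th percentile divides each agonist-to-antagonist ratio of sums by 1.18. Inhbb, an inhibin and activin subunit, was 2.24-fold lower with agonists, the 1 gene of this list past 2-fold. Of the 10 granulosa genes, 7 had log2 ratios below 0 and 3 above 0, up to 0.38. A granulosa gene counted above 0, at 0.32, had another probe at -0.37. The granulosa median lay on the same side of the median of all probes as Tac1 and Kiss1r. So did the medians for theca and steroidogenic markers and for processing of neuropeptide precursors (-0.15). The part of these lists in the Tac1 and Kiss1r ratios was not tested. Oocyte markers had a median of 0.07, with summed signals of 167615 and 145197. Theca and steroidogenic markers had a median of -0.26, which moved to 0.0096 with spike-in scaling, with summed signals of 62594 and 52822. After scaling, the ratio of the sums was 0.812 for granulosa cell, 0.976 for oocyte and 1.0 for theca and steroidogenic markers.

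Nerve markers were considered because TKs have been found in nerve endings of the ovary. Of 16 such genes, 10 were measured on both arrays, 3 on the agonist array only and 3 on neither, with a median of 0.08 that ranged from -0.03 to 0.35 and summed signals of 13097 with agonists and 12063 with antagonists, a ratio of 0.918 after scaling. Prph, an intermediate filament of peripheral neurons, gave 568 and 80.6, 5.96-fold higher with agonists, and was the 1 nerve marker past 2-fold. Of 6 Schwann cell markers 5 were measured, with a median of 0.59 that ranged from 0.36 to 0.86 over the settings. Their summed signals were 4129 and 1702, a ratio of 2.05 after scaling. S100b, a calcium-binding protein of glia, was 2.37-fold higher with agonists. Log2 ratios were above 0 for 5 nerve and 3 Schwann cell markers and below 0 for 5 and 2.

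The marker medians for vessels, smooth muscle and macrophages lay above the median of all probes. Of 8 endothelial markers 7 were measured on both arrays, with a median of 0.88 and summed signals of 41651 with agonists and 31056 with antagonists. Vwf was 5.63-fold, Tek at least 4.10-fold and Tie1 3.07-fold higher with agonists, where "at least" marks a probe well above background on the agonist array only. Of 6 smooth muscle markers 5 were measured on both arrays, with a median of 0.81 and summed signals of 25912 and 13345, and Des was at least 2.63-fold and Myocd 2.20-fold higher with agonists. Of 7 macrophage markers with a probe all 7 were measured, with a median of 0.76 and summed signals of 14681 and 11811, and Aif1, Mrc1 and Adgre1 were 3.59-fold, 3.54-fold and 2.67-fold higher with agonists, although the other Adgre1 probe had a log2 ratio of 0.72. Of 6 B lymphocyte markers 2 were measured on both arrays, Cd22 and Ms4a1, with a median of 0.05 and summed signals of 928 and 752. After scaling, the ratio of the sums was 1.13 for endothelial, 1.64 for smooth muscle, 1.05 for macrophage and 1.04 for B lymphocyte markers. Among genes measured on both arrays, 6 endothelial markers had log2 ratios above 0 and 1 had -0.27, although its other probe had 0.38. For macrophage markers 6 were above 0 and 1 was at -0.31, with its other probes at -0.39 and 0.64. A macrophage gene counted above 0 also had a probe at -0.09. For smooth muscle 5 were above 0 and 0 below. The endothelial, smooth muscle, macrophage and Schwann cell lists lay on the same side as Tac2 and Kiss1, and their part in the Tac2 and Kiss1 ratios was not tested.

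**Figure D4:**
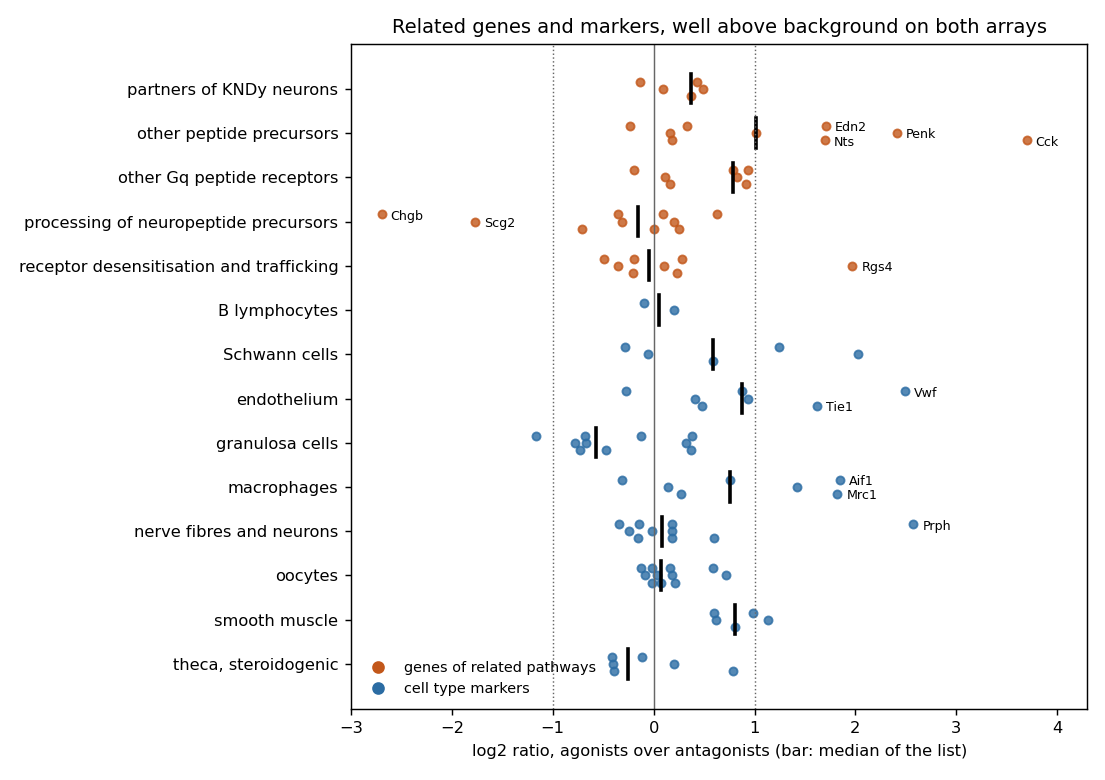
Log2 ratio, agonists over antagonists, of each gene measured on both arrays in the related lists (orange) and marker lists (blue), with a black bar at the median of each list and dotted lines at 2-fold. The medians reach from -0.57 for granulosa cell markers to 1.01 for other peptide precursors, and named points such as Cck, Penk and Chgb stand apart from the rest of their lists.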

How the data were processed

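The authors had the arrays read with Agilent Feature Extraction 10.10.1.1 (protocol GE1_1010_Sep10) and deposited a background-corrected intensity per spot, linear and unscaled between arrays, with its error and marks. The array was designed on mouse assembly mm9 per the file headers. A deposited summary table of intensities equalled this signal times 1.99 with agonists and 2.19 with antagonists. Both arrays were on 1 slide.

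Control and outlier spots were left out. The log2 signal was centred on the array's 75th percentile, and spots of a probe were averaged. A probe was measured where over 50% of its spots were well above background. For a bound, the dim side was the higher of its signal and the lowest measured signal. Accessions were matched to RefSeq transcripts of GRCm38.p6, which named 27230 of 55674 probes and all 8 genes described.

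Each list is represented by up to 3 genes with the largest difference past 2-fold, or otherwise by its 2 brightest. Pdyn, Lhcgr and the neighbouring genes were named after their values were seen. Some marker genes are not reported here by name. Genes and lists were chosen with earlier results of these data known. Alternatives covered scaling, normexp (offset 50), loess (span 0.3), spots, filters and a 1.5-fold threshold. The number of arrays limits the precision. The calculation was tested on simulated data. Python 3.11.15, numpy 2.4.6, pandas 2.3.3, matplotlib 3.10.9, R 4.3.3 and limma 3.58.1 were used.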

Additional observations from a re-analysis of the deposited data

How the results depend on the processing

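Without scaling the log2 ratios were -0.29 for Tac1, 1.35 for Tac2, -0.0069 for Tacr2 and 2.04 and 0.55 for the Kiss1 probes, with a median of 0.27 over the 6 measured probes. With scaling on spike-in RNA they were -0.27, 1.38, 0.016, 2.06 and 0.58, with a median of 0.30. Both settings move all probes together, and the Tacr2 ratio was then on the other side of 0 or close to it. Under normexp background correction Tac2 was at 0.77 and the Kiss1 probes at 1.09 and 0.057, so that 1 of the 6 probes, a Kiss1 probe, stayed past 2-fold, and 470 of all probes did, against 1123. With the looser mark of a positive and significant signal, all 10 probes counted on the agonist array, the median over the probes counted on both arrays was -0.25, and 3320 of all probes were past 2-fold. With no filter on dim probes 5672 of all probes were past 2-fold and Tacr3 joined Tac2 and Kiss1. With a 1.5-fold threshold 3919 were past it, and Kiss1r joined them on the lower side. Of the probes past the threshold, 79.3% were higher with agonists, against 93.9% without scaling, 94.4% with spike-in scaling, 62.0% with the looser mark, 58.9% with no filter and 58.7% with the 1.5-fold threshold. The normexp setting adds an offset of 50 to the signals of both arrays, and the part of that offset in the shift was not tested. Of 210 alternative medians of the gene lists, 36 moved by more than 0.21, the median software error of the 6 measured probes, and 13 changed sign. No probe of the 8 genes was well above background on 1 array only. For those that met the looser mark on the agonist array only, the scaled agonist value over the lowest measured value of the antagonist array was 0.30 for Tac4, 0.20 for Tacr1 and 0.78 for Tacr3, all under 1, so no bound of a fold is given. No paired analysis was possible because a condition has a single array and nothing was tested, and for the same reason no array could be left out.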
